A study of Mus musculus with 4 samples.

Results

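The receptors for the growth factors and cytokines that drive myeloid progenitors were followed across the donor-derived progenitors of a *Bcor* transplant experiment. They are 10 genes chosen by name, all of which were among the 12067 genes of the count table: *Kit*, *Flt3*, *Csf1r*, *Csf3r*, *Csf2ra*, *Csf2rb*, *Csf2rb2*, *Il3ra*, *Il6ra* and *Il6st*. Whole bone marrow of BcorΔE9-10 or BcorWT donors was transplanted into irradiated *Ptprca* recipients, and 20 weeks later donor-derived CD45.2+ KL cells (lineage-negative, cKIT-positive and Sca-1-negative myeloid progenitors) were sorted. RNA was measured by Quant-seq, which primes from the poly-A tail and counts each transcript near its 3′ end, in 2 libraries of each genotype. BcorΔE9-10 donors carried the genotype scl-Cre-ERT +; Bcorfl/y, and BcorWT donors carried Bcorfl/y alone. The floxed *Bcor* allele on the single X chromosome of the male donors and the tamoxifen treatment were therefore common to both groups, and the Cre transgene was present in BcorΔE9-10 only. Its Cre is tamoxifen-inducible and driven by stem cell regulatory sequence of *Tal1* (*Scl*), so excision of *Bcor* exons 9 and 10 was started in stem cells and inherited by the KL cells. The recipients were irradiated sub-lethally and retained cells of their own, which the CD45.2 gate was set to leave out. No source used here states whether the libraries of a group came from separate recipients, or whether animals were pooled. The p-values therefore measure only the spread between these samples, which may be technical.

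Myeloid growth factor receptors sit on the surface of progenitors and pass the signals that decide survival, division and maturation. *Kit*, *Flt3* and *Csf1r* encode receptor tyrosine kinases for stem cell factor, FLT3 ligand and M-CSF, and they phosphorylate themselves when the ligand pairs them. The others have no kinase of their own and work through Janus kinases: *Csf3r* encodes the G-CSF receptor, *Csf2ra* and *Il3ra* encode the ligand-specific chains for GM-CSF and IL-3, *Csf2rb* encodes the beta chain shared by GM-CSF, IL-3 and IL-5, *Csf2rb2* encodes a mouse beta chain that serves IL-3, and *Il6ra* and *Il6st* encode the IL-6 receptor and its signalling partner gp130. In normal marrow *Kit* and *Flt3* mark immature cells, *Csf3r* rises along the neutrophil path and *Csf1r* along the monocyte path.

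The sequence just upstream of these genes is a classical place of PU.1 and C/EBP action. RefSeq windows on GRCm38.p6, 250 bases before to 50 after the RefSeq start, were searched for 8 of the 10 genes. The other genes, *Csf2rb* and the M-CSF receptor gene, were not searched. The letters GAGGAA, a core of many PU.1 sites, were searched on both strands and were found in 5 of the 8 windows, against 28.3% of the 32851 windows of that length. The letters AGATAA, a core read by GATA factors, were found in 1 window (*Il6ra*), against 11.2% of all, and TTCNNNGAA, the core read by STAT proteins, was found in 1, against 8.3%. GAGGAA and TTCNNNGAA can share bases where they meet (GAA, or TTC on the other strand). Counted from the RefSeq start, the matches lie 223 bases upstream in *Kit*, 86 upstream in *Csf3r*, and 14 and 8 upstream in *Csf2ra*. They lie 70 bases upstream in *Il6ra*, and 167 upstream and 29 downstream in *Csf2rb2*. In *Kit*, *Csf3r* and *Csf2ra* the RefSeq start is not the GENCODE gene start given below, and the *Csf3r* match lies inside the GENCODE gene. A match is a run of letters and not a measured site. The windows of *Kit*, *Csf3r* and *Csf2ra* are printed because they belong to receptors of 3 different kinds, with GAGGAA in capitals, at chr5:75574737-75575036 on the plus strand, chr4:126024409-126024708 on the plus strand and chr19:61228369-61228668 on the minus strand. In *Csf2ra* the matches stand side by side.
Kit: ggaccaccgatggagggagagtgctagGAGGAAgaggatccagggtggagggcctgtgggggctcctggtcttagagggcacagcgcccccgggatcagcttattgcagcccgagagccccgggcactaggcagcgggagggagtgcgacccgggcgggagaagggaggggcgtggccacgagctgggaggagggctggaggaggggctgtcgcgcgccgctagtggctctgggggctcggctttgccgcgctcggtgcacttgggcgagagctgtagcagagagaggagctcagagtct
Csf3r: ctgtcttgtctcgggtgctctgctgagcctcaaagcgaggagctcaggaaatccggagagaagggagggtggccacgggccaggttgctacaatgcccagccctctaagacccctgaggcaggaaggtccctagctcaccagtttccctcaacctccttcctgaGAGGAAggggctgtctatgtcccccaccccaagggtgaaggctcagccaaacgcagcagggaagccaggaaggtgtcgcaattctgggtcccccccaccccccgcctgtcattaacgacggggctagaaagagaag
Csf2ra: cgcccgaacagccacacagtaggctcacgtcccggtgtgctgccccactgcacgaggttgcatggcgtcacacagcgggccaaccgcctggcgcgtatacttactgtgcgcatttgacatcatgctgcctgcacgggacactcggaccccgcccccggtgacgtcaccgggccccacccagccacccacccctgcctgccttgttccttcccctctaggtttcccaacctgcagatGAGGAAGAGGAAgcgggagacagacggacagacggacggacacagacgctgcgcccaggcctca

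Total counts ranged from 3825289.5 to 6253100.5 per library, and 3 counts were worth between 0.489 and 0.876 CPM (counts scaled to library size with TMM factors). Every receptor gene had at least 12 counts in every library. *Bcor* had 104 and 113 counts in BcorΔE9-10 replicates 1 and 2 and 58 and 79 in BcorWT replicates 1 and 2, which does not check the genotype, because the reads come from the 3′ end and the deleted exons are internal. The transcript *Gm42418*, which carries ribosomal RNA-like sequence, took from 14.3% to 27.9% of counts in 3 libraries and 1.43% in BcorWT replicate 2. The general KL progenitor markers, such as *Mpo* and *Cd34*, were all detected in all libraries, with a summed level from 8409 to 11320 CPM. *Ly6a*, which encodes Sca-1, had 0, 20, 13 and 6 counts in BcorΔE9-10 replicates 1 and 2 and BcorWT replicates 1 and 2. *Itgam* and *Ly6g* encode lineage proteins that the gate was set to leave out. *Itgam* had 73.7 and 159 CPM in BcorΔE9-10 and 108 and 86.8 CPM in BcorWT. *Ly6g* had 39.6 and 131 CPM against 94.6 and 174 CPM. Summed granulocyte markers, from 63396 to 155310 CPM, exceeded the summed KL progenitor markers in every library. Whether lineage-positive cells entered the sort was not tested.

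In the comparison of BcorΔE9-10 with BcorWT KL cells, no receptor gene changed past the threshold. Of the 10 genes, 0 had an adjusted p under 0.05 by edgeR's quasi-likelihood test with Benjamini-Hochberg adjustment, against 0.0166% of all genes, and 0 had an unadjusted p under 0.05, against 4.42%. The counts were also 0 with limma-voom and with DESeq2, adjusted or not. The unadjusted count moved when 1 BcorWT library was left out. It was 3 without BcorWT replicate 1 (*Kit*, *Csf1r* and *Csf2rb*), where 3013 of 12063 genes had such a p, and 1 without BcorWT replicate 2 (*Csf3r*), where 689 of 12061 had one. Adjusted p of the 10 genes ran from 0.945 to 0.997. Both BcorΔE9-10 libraries lay below both BcorWT libraries for 2 genes (*Flt3* and *Csf1r*), against 17.1% of all genes, and above them for 0, against 16.8%. A share of 2 in 10 is near that background and was not read as a result about the receptors. The log2 fold changes ran from -0.77 (*Csf2rb*) to 0.47 (*Csf3r*), 3 positive and 7 negative, with a median of -0.19 beside -0.03 over all genes. Their standard errors ran from 0.34 to 0.70. All 10 of the 95% intervals cover 0, and at this number of libraries 8 of them also hold a log2 fold change of -1 and 5 a log2 fold change of 1. An exact permutation test of 2 libraries against 2 cannot give a p below 0.333 and was not used.

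**Figure D1:**
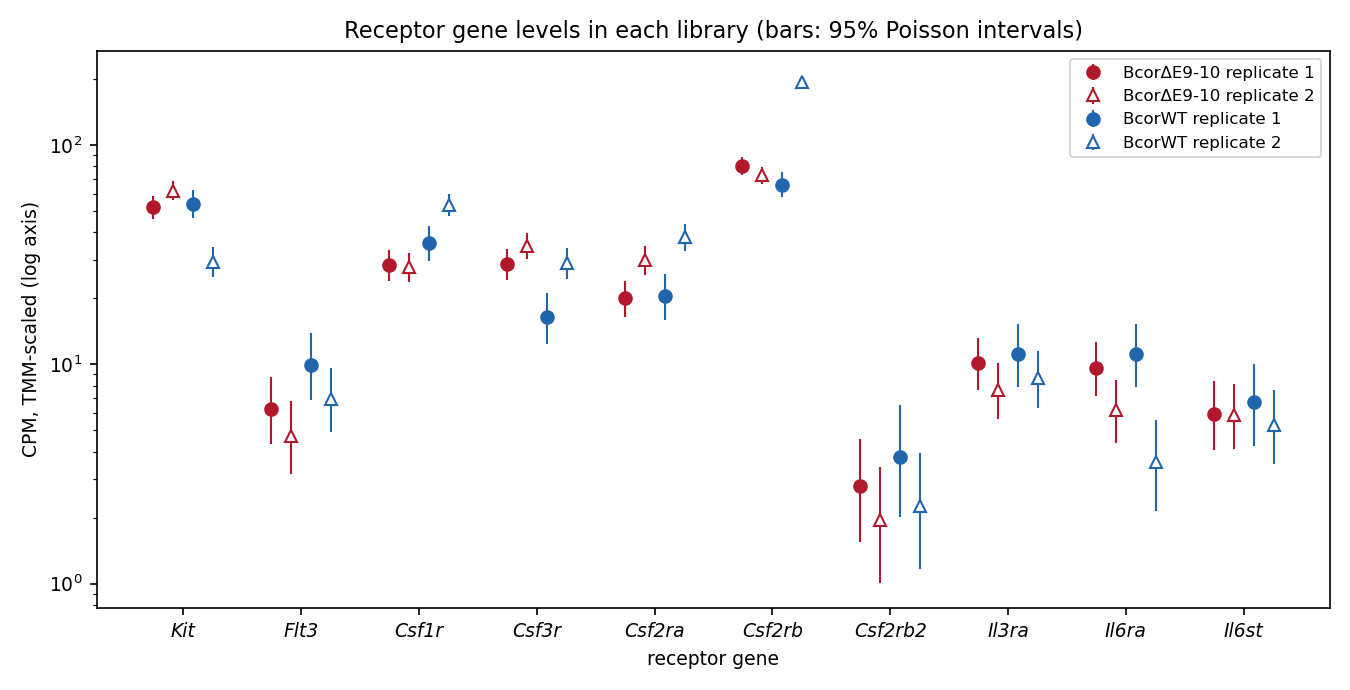
CPM (log axis) of the 10 receptor genes in the 2 BcorΔE9-10 and 2 BcorWT libraries, each point a library with its 95% Poisson interval, which covers counting error only. *Csf2rb* of BcorWT replicate 2, at 194 CPM, stands above the other 3 libraries, and for *Flt3* and *Csf1r* both BcorΔE9-10 points lie under both BcorWT points.

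*Kit* (ENSMUSG00000005672, chr5:75574916-75656722, plus strand) encodes the receptor by which these cells were sorted, and its protein was therefore required in both groups. It had 282 and 380 counts in BcorΔE9-10 replicates 1 and 2 and 184 and 156 in BcorWT replicates 1 and 2, which came to 52.1 and 61.9 CPM and to 53.7 and 29.4 CPM. BcorWT replicate 2 was low, the other 3 libraries lay close together, and the groups overlapped. The means were 57.0 ± 6.95 CPM in BcorΔE9-10 and 41.5 ± 17.2 CPM in BcorWT (SD, n = 2 libraries each), a log2 fold change of 0.46 (standard error 0.38, 95% interval -0.41 to 1.33, edgeR adjusted p = 0.945). The value was 0.09 without BcorWT replicate 2 and 0.95 without BcorWT replicate 1.

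*Flt3* (ENSMUSG00000042817, chr5:147330741-147400489, minus strand) marks multipotent and lymphoid-primed progenitors, most of which lie outside a Sca-1-negative gate. It had 6.28 and 4.73 CPM in BcorΔE9-10 and 9.93 and 6.96 CPM in BcorWT. Both BcorΔE9-10 libraries were below both BcorWT libraries, although the values rest on 29 to 37 counts, and of the Poisson intervals across the groups only those of BcorΔE9-10 replicate 2 (up to 6.79 CPM) and BcorWT replicate 1 (from 6.88 CPM) were apart. The log2 fold change was -0.61 (standard error 0.50, 95% interval -1.77 to 0.55, edgeR adjusted p = 0.945). It stayed negative, between -0.85 and -0.34, when any 1 library was left out.

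*Csf1r* (ENSMUSG00000024621) encodes the M-CSF receptor of the monocyte and macrophage path. It had 153 and 170 counts in BcorΔE9-10 and 122 and 283 counts in BcorWT, or 28.3 and 27.7 CPM against 35.6 and 53.3 CPM. The BcorΔE9-10 libraries were nearly equal and lay below both BcorWT libraries, of which replicate 2 was the higher. The means were 28.0 ± 0.400 and 44.4 ± 12.5 CPM (SD, n = 2 libraries each). The log2 fold change was -0.67 (standard error 0.34, 95% interval -1.45 to 0.11) with the smallest p of the 10 genes by edgeR, 0.0839, and an adjusted p of 0.945. It was -0.35 without BcorWT replicate 2 and -0.93 without BcorWT replicate 1. The 3′ end of *Csf1r* lies in an 873-base overlap with *Hmgxb3* on the opposite strand, and no source used here states whether strand was used in counting, so that reads there could belong to either gene. *Hmgxb3* had 14.2 and 18.9 CPM in BcorΔE9-10 and 24.5 and 29.5 CPM in BcorWT, so it too had both BcorΔE9-10 libraries below both BcorWT libraries.

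The summed level of monocyte and dendritic cell markers lay on the same side as *Csf1r*, but not that of each marker. The 8 such markers in the table that are not receptor genes of the set summed to 718 and 726 CPM in BcorΔE9-10 and to 884 and 1721 CPM in BcorWT. Most of the sum was *Ly6c2* (429 and 491 CPM against 550 and 1365 CPM) and *Irf8* (244 and 188 CPM against 280.4 and 274 CPM). Of the 8, 6 had a negative log2 fold change, and 4 lay below BcorWT without overlap, against 17.1% of all genes. *Ly86* and *Ccr2* had positive values, 0.59 and 0.03, and overlapped. None of them was at 0 in any library, and *Siglech*, a marker of plasmacytoid dendritic cells, was not in the table. Their part in the *Csf1r* values was not tested. In bulk RNA, fewer cells of a type and less RNA per cell cannot be told apart.

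*Csf3r* (ENSMUSG00000028859, chr4:126024550-126044440, plus strand) encodes the G-CSF receptor, the main receptor for neutrophil production. It had 155 and 213 counts in BcorΔE9-10 and 56 and 154 counts in BcorWT, or 28.6 and 34.7 CPM against 16.4 and 29.0 CPM. BcorWT replicate 1 was the low library, while BcorWT replicate 2 fell between the BcorΔE9-10 libraries. The means were 31.7 ± 4.30 and 22.7 ± 8.93 CPM (SD, n = 2 libraries each), with a log2 fold change of 0.47 (standard error 0.38, 95% interval -0.40 to 1.35, edgeR adjusted p = 0.945). The value was 0.13 without BcorWT replicate 1 and 0.95 without BcorWT replicate 2. Summed granulocyte markers, among them *S100a8* and *Ngp*, followed neither genotype, at 63396 and 155310 CPM in BcorΔE9-10 and 94511 and 143559 CPM in BcorWT. Both measures were lower in replicate 1 than in replicate 2 of each genotype.

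*Csf2rb* (ENSMUSG00000071713, chr15:78325752-78353847, plus strand), the beta chain common to GM-CSF, IL-3 and IL-5, varied widely between the BcorWT libraries. It had 434 and 446 counts in BcorΔE9-10 and 226 and 1032 counts in BcorWT, or 80.2 and 72.7 CPM against 66.0 and 194 CPM. BcorWT replicate 1 lay just under the BcorΔE9-10 libraries, and BcorWT replicate 2 was 2.94-fold higher than BcorWT replicate 1. The Poisson interval of BcorWT replicate 2, from 183 to 206 CPM, lay apart from those of the other 3 libraries. With a BcorWT mean of 130.1 ± 90.7 CPM against 76.5 ± 5.31 CPM in BcorΔE9-10 (SD, n = 2 libraries each), the log2 fold change was -0.77 (standard error 0.49, 95% interval -1.91 to 0.37, edgeR adjusted p = 0.945). BcorWT replicate 1 alone decided whether the gene was called: without it the log2 fold change was -1.35 with an adjusted p of 0.0283 by edgeR, and over all the alternatives the adjusted p ran from 0.0283 to 1.00. Without BcorWT replicate 2 the sign turned, to 0.21.

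*Csf2rb2* (ENSMUSG00000071714, chr15:78282507-78305721, minus strand) lies beside *Csf2rb*, with 20030 bases and no annotated gene between them. Its longest annotated transcript was 95.1% identical to that of *Csf2rb* over an aligned stretch of 3108 bases and 83.5% identical over 1374 bases that reach to within 15 bases of the 3′ end, where Quant-seq counts. The counting could therefore have split reads between the genes or dropped them, and the *Csf2rb2* values are uncertain. It had 15 and 12 counts in BcorΔE9-10 and 13 and 12 counts in BcorWT, or 2.77 and 1.96 CPM against 3.80 and 2.26 CPM, with a log2 fold change of -0.34 (standard error 0.70). Without BcorWT replicate 1 its log2 fold change was 0.056. BcorWT replicate 1 was the highest library for *Csf2rb2* and the lowest for *Csf2rb*, and the groups overlapped. *Csf2rb2* made up 3.34% (95% Wilson interval 2.03% to 5.44%) and 2.62% (1.51% to 4.52%) of the counts of both genes in BcorΔE9-10 replicates 1 and 2. In BcorWT replicates 1 and 2 its share was 5.44% (3.21% to 9.08%) and 1.15% (0.659% to 2.00%). The BcorWT intervals did not overlap each other, and the BcorΔE9-10 shares lay between the BcorWT ones. With the counts of both genes added before the fit, the log2 fold change was -0.76, near that of *Csf2rb* alone.

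*Csf2ra* (ENSMUSG00000059326, chr19:61223957-61228429, minus strand), the GM-CSF-specific chain, had 20.0 and 29.8 CPM in BcorΔE9-10 and 20.4 and 38.01 CPM in BcorWT. Replicate 2 was the higher library in each genotype and the groups overlapped, with a log2 fold change of -0.24 (standard error 0.41, 95% interval -1.18 to 0.71, edgeR adjusted p = 0.964). That value turned positive without BcorWT replicate 2 (0.29) and without BcorΔE9-10 replicate 1 (0.024). *Il3ra* (ENSMUSG00000068758, chr14:14346275-14356011, plus strand), the IL-3-specific chain, had 10.2 and 7.66 CPM in BcorΔE9-10 and 11.1 and 8.66 CPM in BcorWT. Here replicate 1 was the higher library in each genotype, and the log2 fold change was -0.14 (standard error 0.44, 95% interval -1.17 to 0.89, edgeR adjusted p = 0.977). This value too turned positive, to 0.050 without BcorΔE9-10 replicate 2 and to 0.036 without BcorWT replicate 1. Summed over *Csf2ra*, *Csf2rb*, *Csf2rb2* and *Il3ra*, the GM-CSF and IL-3 chains had 113 and 112 CPM in BcorΔE9-10 and 101 and 243 CPM in BcorWT. Most of the excess of BcorWT replicate 2 in that sum came from *Csf2rb*.

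*Il6ra* (ENSMUSG00000027947, chr3:89864059-89913196, minus strand), which binds IL-6, had 52 and 38 counts in BcorΔE9-10 and 38 and 19 counts in BcorWT, or 9.61 and 6.19 CPM against 11.1 and 3.58 CPM. The BcorWT libraries were at either end of the range, replicate 2 being 3.10-fold lower than replicate 1, and both BcorΔE9-10 libraries fell between them. The log2 fold change of 0.13 (standard error 0.63, 95% interval -1.32 to 1.59, edgeR adjusted p = 0.986) became -0.49 without BcorWT replicate 2 and 1.13 without BcorWT replicate 1. *Il6st* (ENSMUSG00000021756, chr13:112464070-112510086, plus strand) encodes gp130, which also serves IL-11, LIF and oncostatin M. It was the steadiest gene of the set, with 5.91 and 5.87 CPM in BcorΔE9-10 and 6.72 and 5.27 CPM in BcorWT. The BcorWT libraries lay on either side of the BcorΔE9-10 libraries, and the log2 fold change was -0.02 (standard error 0.51, 95% interval -1.20 to 1.16, edgeR adjusted p = 0.997). Without BcorWT replicate 1 its log2 fold change was 0.16. Annotated antisense genes lie within *Il6ra*, *Flt3* and *Il3ra*, none of them over the 3′ end of the receptor gene, and none of them is in the table.

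**Figure D2:**
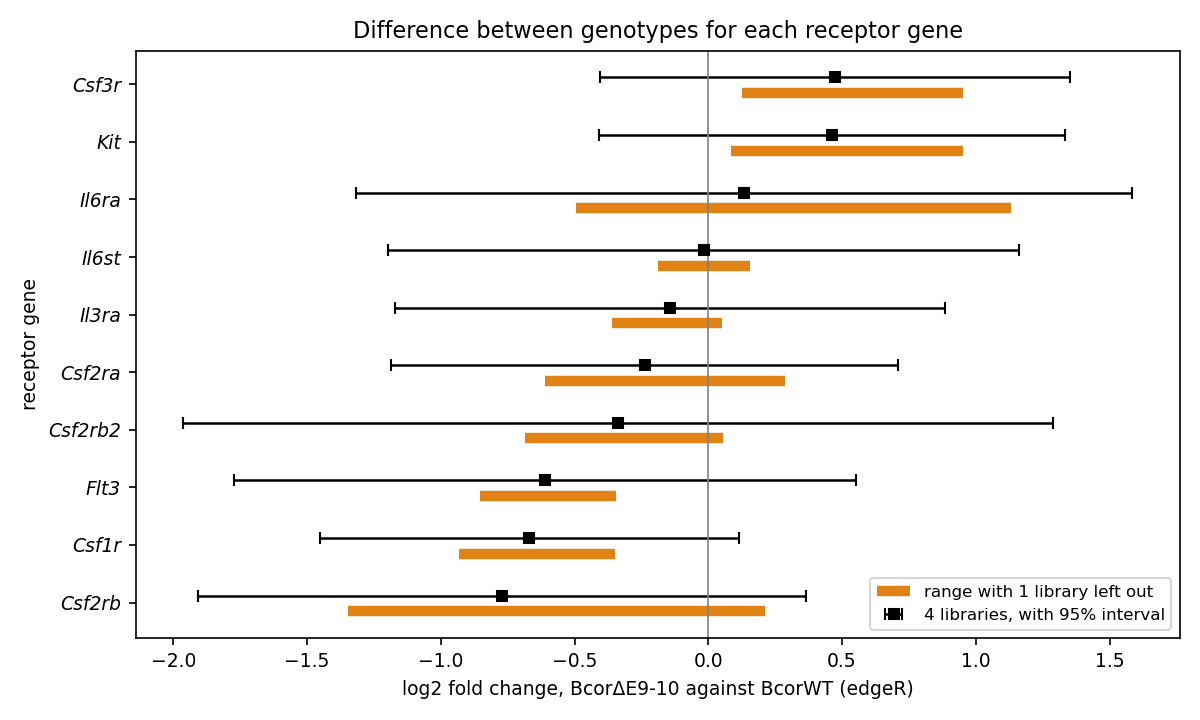
Log2 fold change (BcorΔE9-10 against BcorWT, edgeR) of each of the 10 receptor genes with its 95% interval. A thick bar gives the range over the fits that leave out 1 library. Every interval covers 0, and the thick bar of *Csf2rb* runs from -1.35 to 0.21 and that of *Il6ra* from -0.49 to 1.13.

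The BcorWT libraries differed from each other by more than the genotypes did in most of these genes. The log2 difference of BcorWT replicate 2 from replicate 1 was 1.55 for *Csf2rb*, 0.88 for *Csf2ra*, 0.81 for *Csf3r* and 0.57 for *Csf1r*. It was -1.53 for *Il6ra*, -0.86 for *Kit*, -0.66 for *Csf2rb2*, -0.49 for *Flt3*, -0.34 for *Il3ra* and -0.33 for *Il6st*. BcorWT replicate 2 was thus the higher one for the receptors of G-CSF and M-CSF and for the GM-CSF-specific and common beta chains, and the lower one for the remaining 6 genes. In 8 of the 10 genes the BcorWT replicates were further apart than the genotypes, which was also so for 68.6% of all genes. The exceptions were *Flt3* and *Csf1r*. The BcorΔE9-10 replicates were further apart than the genotypes in 4 of the 10 genes, *Csf2ra*, *Csf2rb2*, *Il3ra* and *Il6ra*, against 48.1% of all genes. A difference between single libraries varies more than one between groups of 2 libraries. These shares were therefore not read as results about the receptors. The median size of the BcorWT difference was 0.74 over the receptor genes and 0.57 over all genes, and that of the BcorΔE9-10 difference was 0.33 and 0.31. A BcorWT difference of 1 or more was seen in 2 of the 10 genes (*Csf2rb* and *Il6ra*), against 24.3% of all genes. Between the BcorΔE9-10 libraries no receptor gene differed by that much, against 8.92% of all genes. BcorWT replicate 2 was also the library with the low share of *Gm42418*. With that gene left out of the fit each receptor gene kept the sign of its log2 fold change, and *Csf2rb* was at -0.79.

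**Figure D3:**
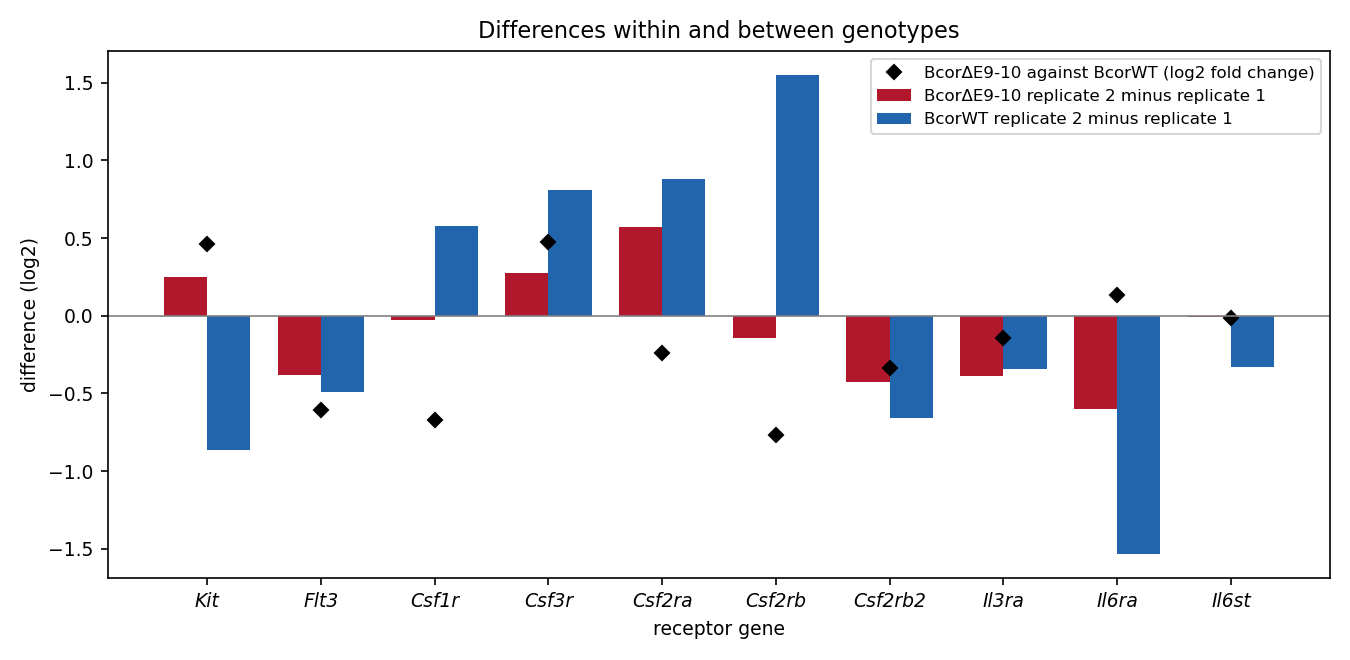
Log2 differences of each receptor gene between the BcorWT libraries, between the BcorΔE9-10 libraries (replicate 2 minus replicate 1) and between the genotypes (edgeR log2 fold change). The BcorWT difference runs from -1.53 (*Il6ra*) to 1.55 (*Csf2rb*), beyond every genotype difference.

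Summed by class, the 3 receptor tyrosine kinases had 86.7 and 94.4 CPM in BcorΔE9-10 and 99.3 and 89.6 CPM in BcorWT. The near-equal sums hide opposite differences, since *Kit* was lowest and *Csf1r* highest in BcorWT replicate 2. The IL-6 chains summed to 15.5 and 12.1 CPM in BcorΔE9-10 and 17.8 and 8.84 CPM in BcorWT. All 10 genes together came to 244 and 253 CPM in BcorΔE9-10 and to 235 and 371 CPM in BcorWT.

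The genes whose profile over the 4 libraries was most like that of a receptor gene were found from log2 CPM centred on each gene, by the root mean square difference. For *Kit* these were *Csnk2a1* (0.015), *Dcaf6* and *Fbxo5*, for *Flt3* *Polr1b* (0.017), *Trps1* and *Surf1*, for *Csf1r* *Arl16* (0.018), *Tssc4* and *Coq8a*, and for *Csf3r* *Eif2b1* (0.045), *Rnf11* and *Ring1*. With 4 libraries such likeness is common: 159 genes lay within 0.1 of *Kit*, 110 of *Csf1r*, 36 of *Flt3* and 30 of *Csf3r*.

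The 6 lists of genes that act with the receptors were read in the same fit, and 90 of their 111 different symbols were in the table. *Lnk*, 1 of the symbols not found there, is an older name of *Sh2b3*, which was in the table. None passed an adjusted p of 0.05 by edgeR, 4 had an unadjusted p under 0.05 with a positive and 2 with a negative log2 fold change (against 4.42% of all genes in either direction), 15 lay above and 11 below BcorWT without overlap (against 16.8% and 17.1% of all genes), and the median log2 fold change was -0.02.

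Of 12 ligands, which other cells mostly make, 3 were in the table. *Csf1*, the gene of M-CSF, had 3.70 and 4.56 CPM in BcorΔE9-10 and 6.42 and 9.03 CPM in BcorWT. *Osm*, which encodes oncostatin M, had 39.6 and 66.0 CPM against 92.6 and 69.1 CPM. *Il11*, a gp130 cytokine gene, had 0.185 and 1.14 CPM against 4.96 and 2.07 CPM, a log2 fold change of -2.30 (standard error 0.98) with an adjusted p of 0.945 by edgeR, and it rests on 1 and 7 counts in BcorΔE9-10. All 3 lay below BcorWT without overlap (against 17.1% of all genes), and none passed the adjusted threshold. *Kitl*, *Flt3l*, *Csf2*, *Csf3*, *Il3*, *Il5*, *Il6*, *Il34* and *Lif* were not in the table.

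Of 25 other cytokine and growth factor receptors, 17 were in the table, 7 with a positive and 10 with a negative log2 fold change (median -0.17). *Tgfbr2*, the type 2 TGF-beta receptor, had 6.65 and 7.17 CPM in BcorΔE9-10 and 0.876 and 3.01 CPM in BcorWT. It was the only gene of the list with an unadjusted edgeR p under 0.05, at a log2 fold change of 1.76 (standard error 0.69) and an adjusted p of 0.945, and both BcorΔE9-10 libraries were above both BcorWT libraries. *Il10ra*, *Il1rl1*, *Tnfrsf1b* and *Tgfbr1* had both BcorΔE9-10 libraries below. *Il1rl1*, the IL-33 receptor of mast cells and basophils, had 1.85 and 0.978 CPM against 6.42 and 2.26 CPM, while the basophil, mast cell and eosinophil markers, 8 of 10 in the table and none at 0 in any library, summed to 272 and 235 CPM in BcorΔE9-10 and to 570 and 715 CPM in BcorWT. Their part in the *Il1rl1* values was not tested. The erythropoietin receptor gene *Epor* was not in the table.

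Among the signal transducers, 22 of 23 were in the table, with a median log2 fold change of 0.02 and no gene under an unadjusted p of 0.05. *Jak2*, the kinase that the beta chain and the G-CSF receptor use, had 44.2 and 40.4 CPM in BcorΔE9-10 and 29.2 and 26.9 CPM in BcorWT. Both BcorΔE9-10 libraries were above both BcorWT libraries, but its log2 fold change of 0.59 ± 0.31 (standard error) did not pass, with an adjusted p of 0.945 by edgeR. The kinase gene *Fes* had 80.6 and 95.03 CPM against 89.1 and 271 CPM. Like *Csf2rb*, it was high in BcorWT replicate 2 alone. *Stat3*, the main STAT of gp130 and the G-CSF receptor, was level at 178 and 185 CPM against 178 and 190 CPM.

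Of the 22 symbols listed as negative regulators, 19 were in the table (median -0.02), and the missing *Lnk* is the same gene as the measured *Sh2b3*. *Socs1*, whose product blocks Janus kinases, had 8.87 and 13.0 CPM in BcorΔE9-10 and 12.8 and 51.0 CPM in BcorWT, with a log2 fold change of -1.55 (standard error 0.61) and an edgeR p of 0.0360 (adjusted p 0.945). The groups overlapped, and the difference came from BcorWT replicate 2. *Dusp6*, which dephosphorylates ERK, had 145 and 150 CPM against 107 and 90.9 CPM, above BcorWT without overlap, but its log2 fold change, 0.58 with a standard error of 0.31, did not pass. Of the 20 genes known to be induced by these receptors, 19 were in the table, 5 with a positive and 14 with a negative log2 fold change (median -0.15). *Cdkn1a*, which encodes the cell cycle inhibitor p21, had 33.5 and 23.8 CPM in BcorΔE9-10 and 14.0 and 14.9 CPM in BcorWT, with a log2 fold change of 0.98 (standard error 0.36) and an adjusted p of 0.945 by edgeR. It was the only induced gene with an unadjusted p under 0.05, and its libraries did not overlap. Common targets of STAT and MAP kinase signals ranged widely, from log2 fold changes of -1.31 for *Socs2*, -1.13 for *Bcl2l1* and -0.61 for *Osm*, through -0.01 for *Pim1* and 0.01 for *Junb*, to 0.56 for *Socs3*. The values of *Socs2* (standard error 1.03) and *Bcl2l1* (standard error 0.62) each rest on 1 BcorWT library. *Socs2* had 10.8 CPM in BcorWT replicate 1 and 0.941 CPM in BcorWT replicate 2. *Bcl2l1* had 14.6 and 66.6 CPM there, and its log2 fold change was -1.84 without BcorWT replicate 1.

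All 15 transcription factors known to act on the receptor genes were in the table, with a median log2 fold change of -0.01. *Hoxa9* had 60.4 and 50.04 CPM in BcorΔE9-10 and 17.2 and 13.2 CPM in BcorWT, a log2 fold change of 1.87 (standard error 0.34) with an edgeR p of 6.30e-04 and an adjusted p of 0.419, the smallest adjusted p of all 6 lists. *Tal1*, a stem cell and erythroid factor, had 29.6 and 21.7 CPM against 13.7 and 10.5 CPM with an edgeR log2 fold change of 1.08 ± 0.38 (standard error) and an adjusted p of 0.945. In both genes the BcorΔE9-10 libraries lay above the BcorWT libraries. Of 10 erythroid markers, 8 were in the table. As for *Tal1*, both BcorΔE9-10 libraries lay above both BcorWT libraries in 7 of the 8, *Gata1* excepted, against 16.8% of all genes. The summed levels were 174 and 154 CPM in BcorΔE9-10 and 70.1 and 70.6 CPM in BcorWT (*Rhd* at 0 in BcorWT replicate 1). The part of these markers in the *Tal1* values was not tested. *Spi1*, which encodes PU.1, a factor known to act on *Csf1r*, *Csf2ra* and *Csf3r*, had 172 and 164 CPM in BcorΔE9-10 and 154 and 400.3 CPM in BcorWT. It had the pattern of *Csf2rb*, with BcorWT replicate 2 alone high. *Cebpa*, known to act on *Csf3r* and *Il6ra*, had 196 and 121 CPM against 159 and 345 CPM and was also highest in BcorWT replicate 2.

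**Figure D4:**
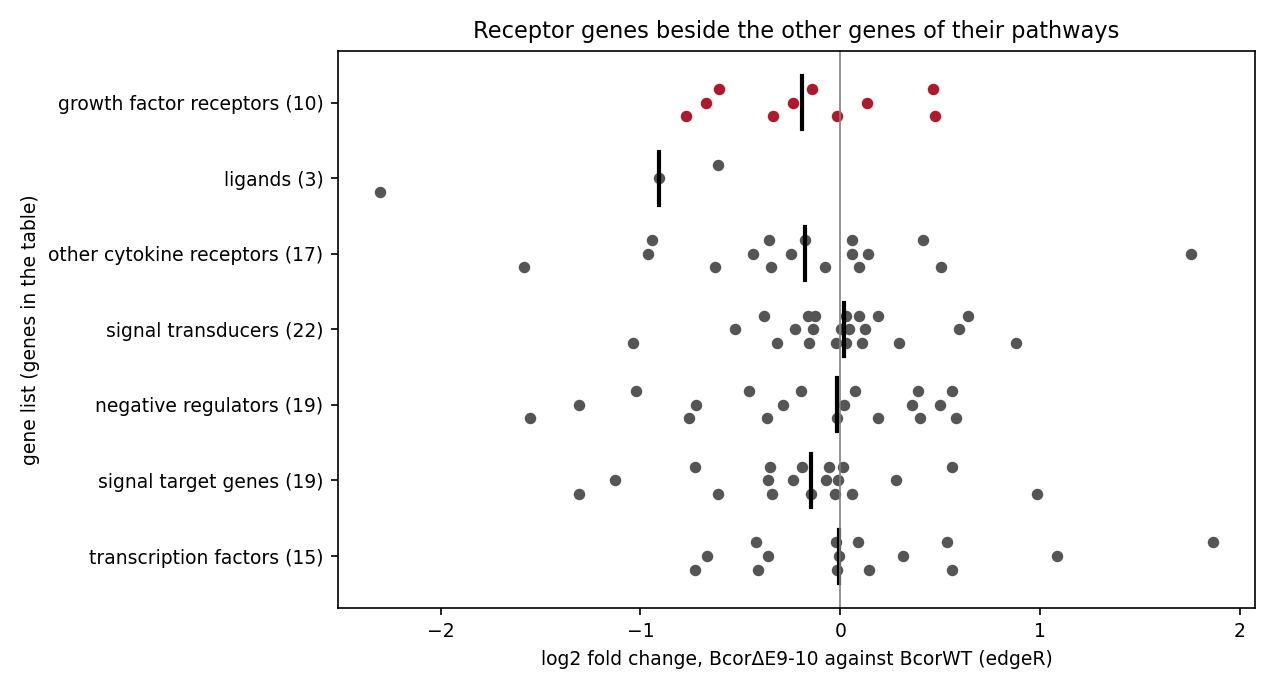
Log2 fold change (BcorΔE9-10 against BcorWT, edgeR) of each measured gene of the receptor set and of the 6 pathway lists, with a bar at each list's median. The medians of all lists but the 3 ligands (-0.91) lie between -0.19 and 0.02, and *Hoxa9*, at 1.87, stands highest.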

How the data were processed

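The deposited values are counts of Quant-seq reads per gene. The authors trimmed reads with cutadapt (1.7 in the submitters' processing notes), mapped them to mm10 (GRCm38) with HISAT2 and counted them with featureCounts of Subread, and the deposited table is not normalized. In BcorΔE9-10 replicate 2 and BcorWT replicate 1 the deposited values were read as estimated counts made in the authors' counting, since *Gm4430* alone was not whole there. The authors' filter on low genes is not given in the sources used here, so a gene outside the table was not analysed. The labels give no batch or date.

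Counts were rounded and fitted with edgeR 4.0.16 in R 4.3.3: filterByExpr, TMM scaling, quasi-likelihood F test, a prior count of 0.125, and Benjamini-Hochberg adjustment over 12067 genes. A standard error is the log2 fold change divided by the square root of F. CPM were scaled by TMM. A gene was called at an adjusted p under 0.05. The fit was tested on simulated data. Alternatives used limma-voom (limma 3.58.1) and DESeq2 1.42.0, other scalings and filters, a replicate block and each library left out. Totals ranged from 3825289.5 to 6253100.5 counts. Poisson and Wilson intervals (95%) and the value of 3 counts cover counting error only, as reads without molecular identifiers are not independent molecules.

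Positions came from GENCODE M21, promoter windows from RefSeq (GRCm38.p6), and identities from blastn. All receptor genes were named, and of the lists those genes with an unadjusted p under 0.05 whose libraries did not overlap, *Bcor*, and members that show what a list holds. *Socs1*, *Fes*, *Dusp6*, *Jak2* and *Il1rl1* were chosen after their values were seen. The receptor genes and lists were chosen with earlier results of these data known.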

Additional observations from a re-analysis of the deposited data

How the results depend on the processing

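There were 2 libraries per genotype, and *Csf2rb2* rests on 12 to 15 counts in each. *Kit*, *Flt3*, *Csf1r* and *Csf3r* kept their direction in all 12 alternatives, of which leaving out the filter could not move them, as the filter removed no gene. No receptor gene was called in any of them except *Csf2rb* without BcorWT replicate 1, so the count ran from 0 to 1 when 1 library was left out. In those fits the lone library of a genotype is assumed to vary like the others. The log2 fold change turned sign in some of them for *Csf2ra* (-0.61 to 0.29), *Csf2rb* (-1.35 to 0.21), *Csf2rb2* (-0.68 to 0.056), *Il3ra* (-0.36 to 0.050), *Il6ra* (-0.49 to 1.13) and *Il6st* (-0.19 to 0.16), and it was 0.0089 for *Il6st* with limma-voom. The cause was not tested. Over all genes, 2 were called, against 5 with at least 10 counts in every library, 4 with limma-voom, 43 with DESeq2 and 6 to 596 with 1 library left out, the 596 without BcorWT replicate 1. Of the 6 pathway lists, 0 genes were called, against 1 (*Hoxa9*) with DESeq2 and 0 to 10 with 1 library left out, the 10 again without BcorWT replicate 1.

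The replicate numbers come from the labels only, and libraries with the same number did not deviate together (r = -0.0945 across 12067 genes, which are not independent replicates). With the replicate number as a block, 14 genes were called over all genes and 0 receptor genes, with log2 fold changes of 0.52 for *Kit* and -0.58 for *Csf2rb*.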

Other observations

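Chosen after the values were seen, the receptor and pathway genes that stood apart in 1 library were counted. In BcorWT replicate 2, 7 of the 90 pathway list genes (7.78%) and 1 of the 10 receptor genes (*Csf2rb*) were at least 2-fold higher than in each of the other 3 libraries, against 4.32% of all genes. The 7 were *Spi1*, the kinase gene *Fes*, the adaptor genes *Dok2* and *Dok3*, the inhibitor genes *Socs1* and *Pias3*, and *Bcl2l1*, which encodes the survival protein BCL-XL. *Bcl2l1* had 66.6 CPM in that library and 14.6 to 18.7 CPM in the others. *Dok3*, which was also among the 3 genes nearest to *Csf2rb* in profile, had 114 CPM there and 39.4 to 47.7 CPM in the others. At least 2-fold lower in BcorWT replicate 2 than in each other library were 3 pathway genes, against 6.22% of all genes. They were *Cxcr4*, the chemokine receptor gene that retains cells in marrow, at 84.5 CPM beside 221 to 294 CPM, the phosphatase gene *Ptpn11* at 30.1 CPM beside 61.6 to 77.6 CPM, and the immediate early gene *Fos* at 143 CPM beside 474 to 691 CPM. In BcorWT replicate 1, 3 pathway genes were high by this measure (*Il11*, *Il1rl1* and *Socs2*; 3.33%, against 1.88% of all genes) and 3 were low (*Il18r1*, *Tgfbr2* and *Socs3*, against 1.52%). In BcorΔE9-10 replicate 1, 2 were low (*Il11* and *Cxcr2*; 2.22%, against 2.70%), and none stood apart in BcorΔE9-10 replicate 2. No receptor gene stood apart in these 3 libraries, where the shares of all genes ran from 0.406% to 2.70%.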
